A study of Mus musculus with 147 samples.

Results

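Among 96 Renin-null wells, 11 held at least 1000 CPM (counts scaled to 1000000 per well, with all genes in the depth), summed over 10 genes of the kidney proximal tubule, namely Lrp2, Slc34a1, Miox, Kap, Slc27a2, Slc13a1, Fbp1, Gatm, Slc5a12 and Pck1. These 11 tubule-rich wells were chosen by that sum and nothing else, out of the 96 Renin-null and 51 WT wells of the series. They were set against the 50 other Renin-null wells with at least 100000 counts and at most 25% of counts from the 13 mitochondrially encoded genes, and the other 35 Renin-null wells entered neither set. Each well of the Fluidigm C1 System was meant to hold 1 cell from the kidney cortex of adult C57BL/6 mice, sorted for YFP and free of a dead-cell dye, and its RNA was read over the full length of the transcripts with SMART-Seq v4. The Renin-null mice were Ren1c-/- Ren1c-YFP and the WT mice Ren1c+/+ Ren1c-YFP. Ren1c-YFP is a transgene that reports activity of the Ren1c control region as YFP. The Renin-null pups had been given saline after birth. The study's methods name several mice of each genotype, a few captures in all, and the use of both sexes across its experiments. No mouse or capture is named for a single well. The Renin-null wells came from 2 sequencing libraries, YFP1 and YFP2. The labels call every one of these wells a Renin-null renin cell, without a cell type of its own for any of them. Because the wells are not replicates of a condition and share mice, each set was treated as 1 sample, and no test was run.

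The proximal tubule is the stretch of the nephron that takes back most of the filtered glucose, amino acids, phosphate and protein. Its cells carry a brush border on the side of the urine, import organic ions from the blood on the other side, burn fatty acids in many mitochondria and peroxisomes, and make glucose. Renin cells are of another lineage, the mural cells of the renal arterioles, which share contractile genes with smooth muscle and pericytes. The gene Akr1b7, an aldo-keto reductase that marks cells of the renin programme, and EYFP, the reporter used for the sort, are the genes closest to the label of these wells. In its other single-cell experiment the study states that reporter mRNA and reporter protein do not correspond, and it used Akr1b7 instead. EYFP levels are therefore not read here as the YFP of a sorted cell.

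The rule placed 4 wells of YFP1 (Sample66, Sample70, Sample71 and Sample96, as their titles call them) and 7 wells of YFP2 (Sample99, Sample103, Sample115, Sample120, Sample123, Sample144 and Sample147) in the set. The summed rule genes reached 15474 CPM in Sample123, 11521 CPM in Sample120, 8930 CPM in Sample70, 6440 CPM in Sample103, 4011 CPM in Sample99 and 3148 CPM in Sample147. They reached 1707 CPM in Sample66, 1369 CPM in Sample71, 1308 CPM in Sample96, 1282 CPM in Sample144 and 1047 CPM in Sample115. Just under the limit were Sample57 of the comparison set at 912 CPM and Sample122, Sample111 and Sample95 of neither set at 881, 879 and 827 CPM. The comparison wells had a median of 6.96 CPM for the same sum. These values chose the wells and are no finding.

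Not all 11 wells bore out the label. In Sample66 the sum came mainly from Lrp2, the endocytic receptor megalin, at 1449 CPM, and from Slc13a1, a sulfate transporter, at 250.5 CPM, with no other rule gene above 2.93 CPM and Miox listed at 0. Sample66 held 19.3 CPM over the genes of 8 other proximal tubule lists, which is less than any comparison well held, so it is rich in these 2 genes and not in the other tubule transcripts. Sample71 and Sample115 had only 11686 and 10502 counts in all. Their rule sums rested on 16 and 11 counts, and the exact Poisson intervals of 783 to 2223 CPM and 523 to 1874 CPM, which cover counting error only, include the limit itself. The other wells of the set had between 365262 counts (Sample123) and 10363577 counts (Sample70), against 151022 to 14505243 counts in the comparison wells. Mitochondrial genes took 38.2% of the counts in Sample103, 35.6% in Sample115 and 25.6% in Sample147, all above the limit set for the comparison wells. With Sample71 and Sample115, which were too shallow, 4 of the 11 wells fell outside those limits and 7 lay within them.

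The 11 wells were also not all distinct in profile. Sample96 and Sample144 had nearly the same profile, with a Pearson r of 0.987 over log2(CPM + 1) of all genes, although one is labelled YFP1 and the other YFP2. Sample99 and Sample147, both labelled YFP2, had an r of 0.974. Sample97 and Sample145 (r of 0.987) and Sample98 and Sample146 (r of 0.984) of the comparison set formed the other such pairs, and the next pair of wells reached 0.896. In all 4 pairs the well numbers lie 48 apart. The chi-square of the 2 wells' counts per degree of freedom was 35.9 for Sample96 and Sample144 and 110.2 for Sample99 and Sample147, so that they differed by more than counting error. With each pair counted once, the set holds 9 wells. Whether the 2 wells of a pair came from the same cell was not tested. Titles and descriptions of Sample119 and Sample120 carry each other's index names. Sample119 was in neither set, and the name of Sample120 rests on its title.

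Outside the rule genes, the tubule-rich wells differed widely in what they held (the plot of tubule against mural transcripts by well). Over the genes of the 8 tubule lists, Sample123 held 53622 CPM, Sample120 held 48669 CPM, Sample70 held 44122 CPM, Sample103 held 29651 CPM, Sample99 held 16358 CPM and Sample147 held 12264 CPM. These 6 wells were above the highest comparison well, at 7818 CPM. Sample115, Sample71, Sample144 and Sample96 held 3428, 3337, 1981 and 1807 CPM, within the range of the comparison wells, whose lowest was 35.8 CPM and whose median was 1391 CPM. Mural genes, the 27 members of a contractile and a pericyte list, gave another order. They summed to 45534 CPM in Sample144 and 45184 CPM in Sample96, beside a comparison median of 45116 CPM. They came to 26387 CPM in Sample66, 26136 CPM in Sample99, 18678 CPM in Sample147, 17330 CPM in Sample115, 7103 CPM in Sample71 and 5255 CPM in Sample120. In Sample123, Sample103 and Sample70 they came to 153, 74.6 and 65.4 CPM, all under the lowest comparison well at 288 CPM.

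**Figure D1:**
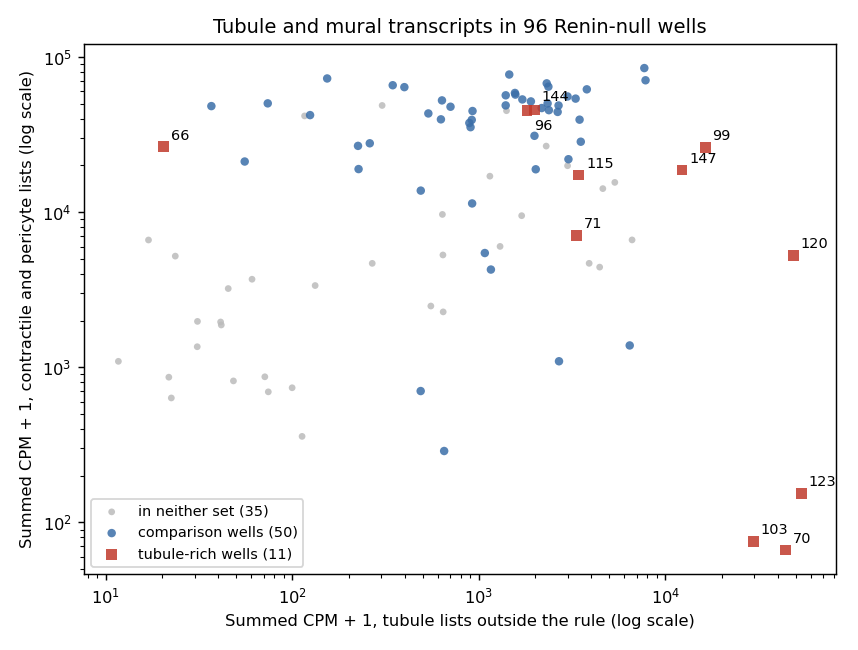
Summed CPM + 1 over the 8 tubule lists without the rule genes (horizontal, log scale) against summed CPM + 1 over the contractile and pericyte lists (vertical, log scale), 1 point for each of the 96 Renin-null wells, with the tubule-rich wells numbered. Sample123, Sample70 and Sample103 are high in tubule and low in mural transcripts, Sample120, Sample99 and Sample147 hold both, and Sample96 and Sample144 lie among the comparison wells.

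At least 1000 CPM of mural transcripts were thus found in 8 of the 11 tubule-rich wells (72.7%) and in 48 of the 50 comparison wells (96%). With near-identical wells counted once it was 6 of 9 tubule-rich wells. The wells are not independent replicates, so no interval is given for these shares. In 3 wells (Sample120, Sample99 and Sample147) mural transcripts above that level went together with more tubule transcripts than any comparison well held, and Sample99 and Sample147 are near-identical. With every well thinned to 100000 counts, which leaves out Sample71 and Sample115, genes of the tubule lists with a count numbered 77 in Sample70, 76 in Sample147, 67 in Sample99, 56 in Sample123, 54 in Sample120 and 47 in Sample103. They numbered 19 in each of Sample96 and Sample144 and 3 in Sample66, against 1 to 30 with a median of 5.5 in the comparison wells. Mural genes with a count numbered 25 in each of Sample99 and Sample147, more than the 2 to 22 seen in the comparison wells, and 10 in Sample120, 8 in Sample123, 7 in Sample103 and 2 in Sample70. Sample99 and Sample147 had the most genes with a count of any kind among the 11 wells, 10121 and 11146, beside 2779 to 11410 in the comparison wells, and 6062 and 6721 after thinning, against 1181 to 5547 in the thinned comparison wells. A doublet caller was not run, and whether a well held more than 1 cell was not tested.

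For single genes, the counts of each set were summed, scaled to CPM and compared as a log2 ratio, tubule-rich over comparison wells. In all, 8889 genes had a count in at least 5 wells and at least 10 CPM in the higher set. Of these, 18.3% (1623 genes) were at least 4-fold higher and 34.6% (3078 genes) at least 4-fold lower in the tubule-rich wells. The median log2 ratio over all 8889 genes was -0.74, and 40.2% of the ratios were above 0. The sums lean on few wells. Of the 1623 genes, 1223 had more than 50% of their tubule-rich counts in 1 well, and 690 passed the 4-fold limit in both libraries. Of the 3078 genes, 1851 did so. The libraries are not independent, here or below, since Sample96 of YFP1 and Sample144 of YFP2 are near-identical, as are pairs of comparison wells. The sets are also unequal in size, 11 against 50 wells. TMM factors would raise every log2 ratio by 0.42, which takes the median over the same 8889 genes to -0.32. With the filter applied again after TMM scaling, 8779 genes passed, with a median of -0.21. The list medians with TMM factors given near the end are over members of those 8779 genes. On another scale, the difference of the mean log2(CPM + 1) per well, 9.45% of the genes were higher and 1.60% lower past the same limit of 2, so that the excess of lower genes holds for summed counts and turns round for the mean of log values.

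Genes of the proximal tubule come first, since the wells were chosen for them (the plot of ratios by list). Of the members of the 8 tubule lists, 84 passed the filter. The filter admits genes through the set where they are high, and the rule chose these wells for tubule transcripts, so nothing is read from the counts that follow. Of the 84 genes, 72 were at least 4-fold higher and 5 at least 4-fold lower, beside 18.3% and 34.6% of all tested genes, with a median log2 ratio of 6.20, and 60 were at least 4-fold higher in both libraries. Of the YFP1 wells, only Sample70 held more of the tubule lists than every comparison well, so agreement between the libraries leans on it. More than 50% of the tubule-rich counts were in 1 well for 57 of the 84 genes. All 10 tested genes of apical endocytosis and the brush border were at least 4-fold higher. Of 6 tested brush border peptidases and glycosidases, 2 were at least 4-fold higher and 3 at least 4-fold lower.

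**Figure D2:**
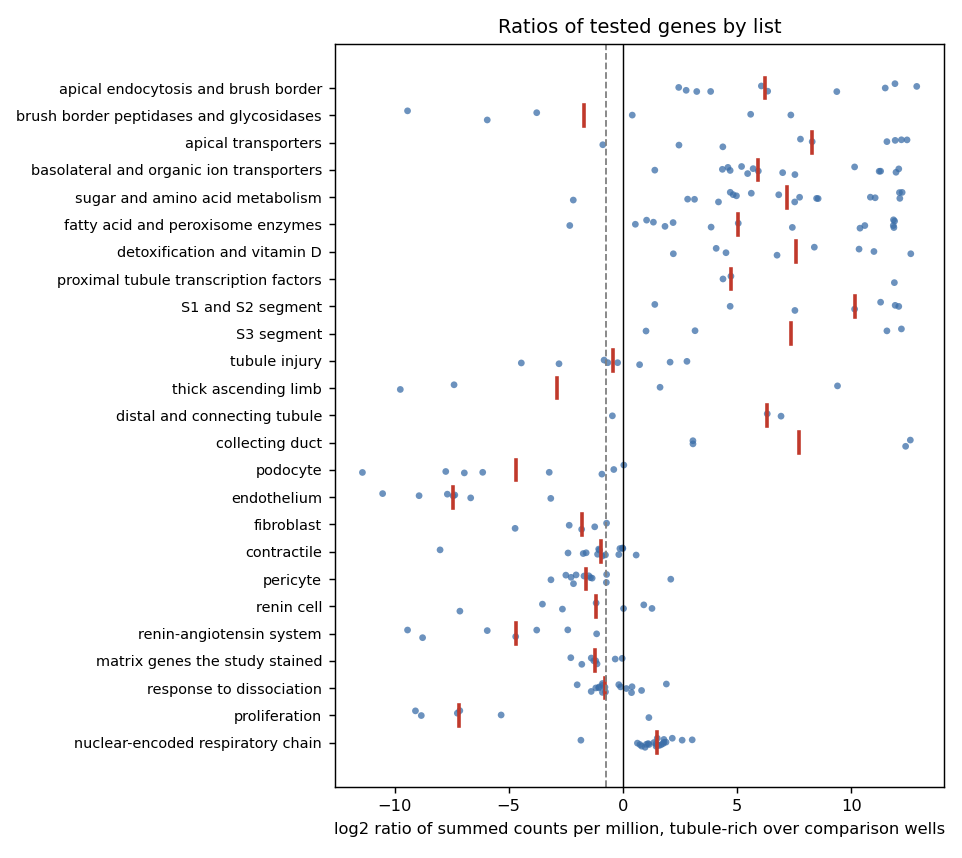
Log2 ratio of summed CPM, tubule-rich over comparison wells, with 1 point for each tested gene, 1 row for each gene list, a red bar at each list's median, a solid line at 0 and a dashed line at the median of all 8889 tested genes (-0.74). The 8 tubule lists lie to the right except the peptidases, endothelial and podocyte genes lie to the left, and contractile genes lie around the dashed line.

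Genes of apical endocytosis and the brush border had a median log2 ratio of 6.20. Cubn, the receptor cubilin that works with megalin, was at 391.7 CPM in Sample120, 51.3 CPM in Sample103 and 43.3 CPM in Sample147, and at no more than 9.04 CPM in any comparison well, with a log2 ratio of 6.34. Its partner Amn, which brings cubilin to the membrane, had 1 count in the comparison wells and a ratio of 12.87 (counting error 10.39 to 18.17), from 4 tubule-rich wells. Dab2, an adaptor for the endocytic receptors, had a smaller ratio of 2.44 and reached 657 CPM in 1 comparison well. Pdzk1, a scaffold under the brush border, was at 2464 CPM in Sample123, 640 CPM in Sample99, 502 CPM in Sample103 and 435 CPM in Sample70, and at no more than 2.63 CPM in any comparison well. In Sample120 it was at only 2.37 CPM. Cltrn, a partner of the amino acid transporters, had a ratio of 6.06 over both libraries, of 6.06 in YFP1 and of 6.09 in YFP2.

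Peptidases of the brush border had ratios of either sign. Ggt1, the γ-glutamyl transferase that breaks down glutathione, had a log2 ratio of 7.35, and Mep1a, a subunit of the protease meprin, one of 5.59. Anpep, aminopeptidase N, was counted in 3 tubule-rich wells, among them 165 CPM in Sample99, and in no comparison well, and fell short of the filter. Mme, which encodes neprilysin, was at 0 in all 11 wells and at 46.9 CPM over the comparison wells, at least 691-fold lower against a floor of 3 counts over the set, although 95.5% of its comparison counts were in 1 well. Enpep, the aminopeptidase that cleaves angiotensin II, had a ratio of -3.77 and is also known in pericytes.

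Transporters on the side of the urine had a median log2 ratio of 8.29, with 8 of 9 tested genes at least 4-fold higher, beside 18.3% of all tested genes. Slc6a19, which takes up neutral amino acids, was at 157 CPM in Sample120, 72.6 CPM in Sample147, 68.4 CPM in Sample123 and 51.2 CPM in Sample99, and at no more than 0.33 CPM in any comparison well. Slc5a2, the glucose transporter SGLT2, was counted in Sample99 and Sample147 alone, at 187 and 121.4 CPM, which is below the number of wells the filter asked for. Slc5a1, its relative SGLT1, was counted in Sample70 alone of the set. Slc3a1, which carries cystine with its partner, was counted in 3 wells with a ratio of 12.44. On the side of the blood, 14 of 15 tested genes were at least 4-fold higher, beside the same 18.3%, with a median of 5.93. Slc22a8, the organic anion transporter OAT3, was at 3562 CPM in Sample120, 569 CPM in Sample70, 275 CPM in Sample99, 255 CPM in Sample123 and 164 CPM in Sample147, and at no more than 10.5 CPM in any comparison well. It was at 0 in Sample103. Slc22a6, the transporter OAT1, had a ratio of 12.08 and Slc4a4, which returns bicarbonate to the blood, one of 7.53.

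Enzymes of sugar and amino acid metabolism had 17 of 18 tested genes at least 4-fold higher, beside 18.3% of all tested genes, with a median of 7.17. G6pc, the last enzyme on the way to free glucose, was at 2422 CPM in Sample120, 408 CPM in Sample70 and 183 CPM in Sample123, and at no more than 0.782 CPM in any comparison well, with a ratio of 12.23. Glyat, which joins glycine to acids for excretion, had a ratio of 8.48, with 89.1% of the counts in Sample70. Pipox, an oxidase of pipecolic acid, was the exception with a ratio of -2.17. Fatty acid and peroxisome enzymes had 10 of 15 tested genes at least 4-fold higher and 1 lower, beside 18.3% and 34.6%. Acsm2, a medium-chain acyl-CoA synthetase of the tubule, was at 12312 CPM in Sample123 and reached 22.9 CPM in the comparison wells. Cyp4a10 and Cyp4a14, which hydroxylate fatty acids, had ratios of 10.59 and 11.85. Hadh and Acadm, enzymes of fatty acid oxidation in many cell types, had ratios of 0.54 and 1.84.

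All 8 tested genes for detoxification were at least 4-fold higher, beside 18.3% of all tested genes, with a median of 7.57, among them Akr1c21 at 12.61 and Gsta2 at 6.75. Of the transcription factors, Hnf4a, a master regulator of tubule and liver genes, was at 238 CPM in Sample123, 171 CPM in Sample99, 142.2 CPM in Sample147 and 56.5 CPM in Sample70 and listed at 0 in the other wells. Pax8 and Tfec had ratios of 4.73 and 4.38. Genes of the early segments S1 and S2 had a median of 10.15 (6 of 7 tested at least 4-fold higher) and those of the late segment S3 one of 7.36 (3 of 4), again beside 18.3%. The S1 and S2 sum was 4698 CPM in Sample123, 4636 CPM in Sample120, 1555 CPM in Sample70, 703.7 CPM in Sample99 and 534 CPM in Sample147. The S3 sum was 1204 CPM in Sample70 and 165 CPM in Sample120 and was 0 in Sample123. It was at 0.478 CPM at the median of the comparison wells but at 2196 CPM in 1 of them, above every tubule-rich well. Of the genes of tubule injury, Havcr1, the injury marker KIM-1, was at 0 in both sets, and Vcam1 and Sox9 were below the filter. Of the 8 tested, 2 were at least 4-fold higher and 2 lower, beside 18.3% and 34.6% of all tested genes, with a median of -0.45. The higher genes were Lcn2, which encodes the injury marker NGAL, and Krt8, a keratin of simple epithelia, with ratios of 2.80 and 2.07 that were below 0 in YFP1 alone. Lcn2 was at 125.2 CPM in Sample99, 85.7 CPM in Sample147 and 95.2 CPM in Sample115 (1 of only 10502 counts). It was at 0 in the other 8 wells, and reached 144.95 CPM in the comparison wells. Krt8 was at 153 and 73.8 CPM in Sample99 and Sample147, and its partner Krt18, with a ratio of 0.73, at 195 and 104.2 CPM, while the highest comparison wells held 163 and 664 CPM of them. The lower genes were Cdh6 and Dcdc2a, with ratios of -2.80 and -4.45. Clu, Cryab and Vim, which mural cells also express, had ratios of -0.66, -0.23 and -0.82.

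**Figure D3:**
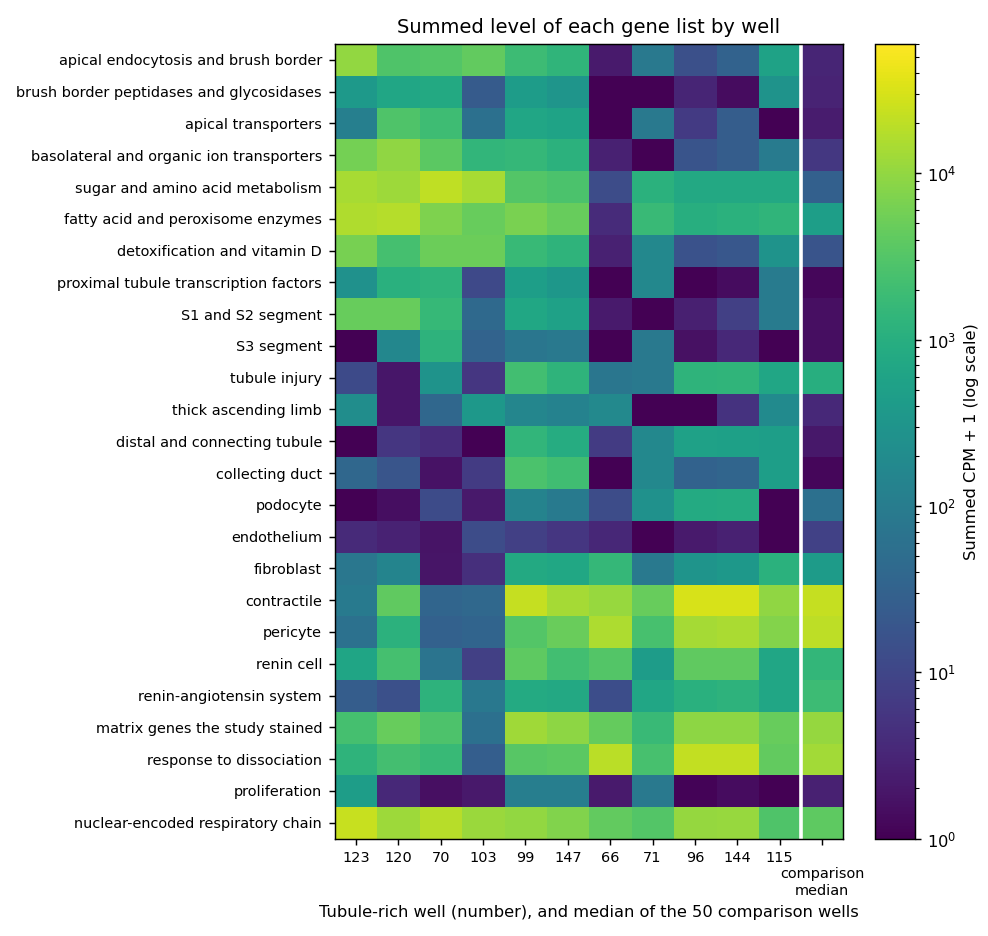
Summed CPM + 1 (colour, log scale) of each gene list (rows) in the 11 tubule-rich wells, ordered by the rule sum, and the median of the 50 comparison wells (last column). Most tubule lists are bright in Sample123, Sample120, Sample70, Sample103, Sample99 and Sample147 and all are dark in Sample66, and the collecting duct and distal lists are bright in Sample99 and Sample147.

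Transcripts of the collecting duct were met mainly in Sample99 and Sample147. Aqp2, the water channel of the collecting duct, was at 959 CPM in Sample99 and 816 CPM in Sample147, and reached 3.03 CPM in the comparison wells. In YFP1, which has neither well, its log2 ratio was 2.89 beside 13.09 in YFP2. The sum over the collecting duct list was 2694 CPM in Sample99 and 2089 CPM in Sample147, from 0 to 476 CPM in the other tubule-rich wells, and 0.195 CPM at the median of the comparison wells. Slc12a3, the sodium chloride transporter of the distal tubule, was at 427 CPM in Sample99 and 297 CPM in Sample147 and at 0 in Sample123, Sample120, Sample70 and Sample103. Of the thick ascending limb, Umod, which encodes uromodulin, was at 96.6 and 66.6 CPM in Sample99 and Sample147. Slc12a1 and Cldn19 of that segment had ratios of -7.40 and -9.75, with 95.2% and 99.6% of their comparison counts in 1 well. Transcripts of haemoglobin, named after their values were seen, were highest in the same wells, with Hba-a2 at 7684 and 3690 CPM. Hba-a2 was also at 952 CPM in Sample115 and 428 CPM in Sample71, the shallow wells, and at no more than 5.83 CPM in the other tubule-rich wells and 39.7 CPM in any comparison well. The sum over the distal and connecting tubule list was 1368 CPM in Sample99 and 899.8 CPM in Sample147, and it was also 548 CPM in Sample96 and 522 CPM in Sample144. Klk1, which encodes tissue kallikrein, was its most counted gene in these 4 wells, at 807, 502, 420.3 and 407 CPM. Klk1 was at 0 at the median of the comparison wells but reached 14883 CPM in 1 of them, where the list sum was 14885 CPM, so this sum alone does not stand for distal tubule transcripts. Of the tested genes, 4 of 4 of the collecting duct list, 2 of 3 of the distal list and 1 of 4 of the thick ascending limb list were at least 4-fold higher, and 2 of the last list lower, beside 18.3% and 34.6% of all tested genes. The sum over the thick ascending limb list was highest in Sample103 at 345 CPM and Sample123 at 219 CPM, in both mainly from Cldn10, a claudin that the proximal tubule also makes. Sample123, Sample120, Sample70 and Sample103 thus held proximal tubule transcripts with at most 38.3 CPM of the collecting duct list, and Sample99 and Sample147 held those of several nephron segments, of mural cells and of blood.

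A gene that is much lower in the tubule-rich wells passes the filter through the comparison wells, so nothing is read from the counts of lower genes in the lists that follow. Podocyte genes had 5 of 8 tested members at least 4-fold lower, beside 34.6% of all tested genes, with a median log2 ratio of -4.68. The sum over the list was highest in Sample144 and Sample96 (856 and 832 CPM) and 0 in Sample123, with a median of 11.7 CPM beside 56.8 CPM in the comparison wells, of which 1 held 21800 CPM. Nphs1, which encodes nephrin of the slit diaphragm, had a ratio of -7.76, with 79.8% of its comparison counts in 1 well. Wt1 had 1 count summed over the 11 wells, in Sample120. All 7 tested endothelial genes were at least 4-fold lower, beside 34.6% of all tested genes, with a median of -7.43. The list summed to 1.90 CPM at the median of the tubule-rich wells and 7.28 CPM at that of the comparison wells, of which 1 held 10633 CPM, so that most wells of either set held little of it. Cdh5, Kdr, Plvap and Egfl7 were at 0 in all 11 wells, and 67.2% of the comparison counts of Kdr, the VEGF receptor, were in 1 well. No gene of the macrophage and leukocyte list passed the filter. Of the fibroblast list, Col1a1, Col1a2 and Col3a1, which encode fibrillar collagens, had ratios of -1.81, -1.24 and -2.35, and Dpt was at 0 in both sets. Of its 5 tested genes, 2 were at least 4-fold lower and none higher, beside 34.6% and 18.3% of all tested genes. Of 6 proliferation genes, 5 were at least 4-fold lower, beside the same 34.6%, but the list summed to 1.17 CPM at the median of the tubule-rich wells and 1.75 CPM at that of the comparison wells. The highest comparison well held 7104 CPM of it, and 92.1% of the comparison counts of Mki67 were in 1 well.

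Contractile genes as a list had a median log2 ratio of -0.96, beside -0.74 for all genes, with none of 14 tested genes at least 4-fold higher and 2 at least 4-fold lower, beside 18.3% and 34.6% of all tested genes. On which side of all genes the list lay depended on the setting. It was -1.01 against -1.75 in YFP1 alone, -0.58 against -0.88 without Sample70, and -1.38 against 0.31 as a difference of mean log2(CPM + 1). The summed values hide how the wells differed. Acta2, smooth muscle α-actin, was at 10302 CPM in Sample96, 9973 CPM in Sample144, 6585 CPM in Sample99, 3536 CPM in Sample147, 1968 CPM in Sample71, 1714 CPM in Sample115, 502 CPM in Sample66 and 446 CPM in Sample120. In Sample123, Sample103 and Sample70 it was at 11.0, 10.5 and 7.33 CPM. The comparison wells ranged from 2.23 to 22599 CPM with a median of 3561 CPM, so the sets overlap over their whole range, and the ratio of -0.02 averages wells that lie far apart. Tagln, which encodes the actin-binding protein SM22, was at 4500 CPM in Sample99, 1130 CPM in Sample120, 32.9 CPM in Sample123 and 9.32 CPM in Sample103. Myh11, the smooth muscle myosin heavy chain, was at 1100 CPM in Sample99, 207 CPM in Sample120 and 2.33 CPM in Sample103. Of the genes at least 4-fold lower, Des (desmin) had a ratio of -2.40, and Actg2 was at 0 in all 11 wells, at least 257-fold lower, with 99.8% of its comparison counts in 1 well. TMM factors raise every ratio alike, and 9 rather than 13 of the 14 contractile genes then had a ratio below 0. Below the median of all tested genes lay 9 of the 14.

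Pericyte genes had a median log2 ratio of -1.60, with 5 of 12 tested genes at least 4-fold lower and 1 higher, beside 34.6% and 18.3% of all tested genes. The median was -2.72 in YFP1 alone, -1.06 in YFP2 alone, -0.96 at a threshold of 500 CPM and -0.55 as a difference of mean log2(CPM + 1). Its difference from the median of all tested genes lay between -1.09 and -0.34 over the settings tried. Rgs5, a regulator of G protein signalling, was at 15294 CPM in Sample66, 11819 CPM in Sample144, 11311 CPM in Sample96, 3194 CPM in Sample147, 1592 CPM in Sample99 and 934 CPM in Sample120. It was between 24.5 and 38.3 CPM in Sample103, Sample70 and Sample123, and had a median of 16032 CPM in the comparison wells, whose lowest value was 20.8 CPM. Cspg4, which encodes the pericyte proteoglycan NG2, had a ratio of 2.10, from Sample96 and Sample144 at 1417 and 1414 CPM, which are near-identical, while no other tubule-rich well held more than 95.2 CPM. Pdgfrb, the receptor that recruits pericytes, was at 84.6 CPM in Sample147, 77.8 CPM in Sample99 and 95.2 CPM in Sample115 (1 of only 10502 counts). It was at 0.24 CPM in Sample120 and 0 in Sample123 and Sample103. With TMM factors, which raise every ratio alike, 11 of the 12 pericyte genes had a ratio below 0, as without them. Of the 12, 9 lay below the median of all tested genes.

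**Figure D4:**
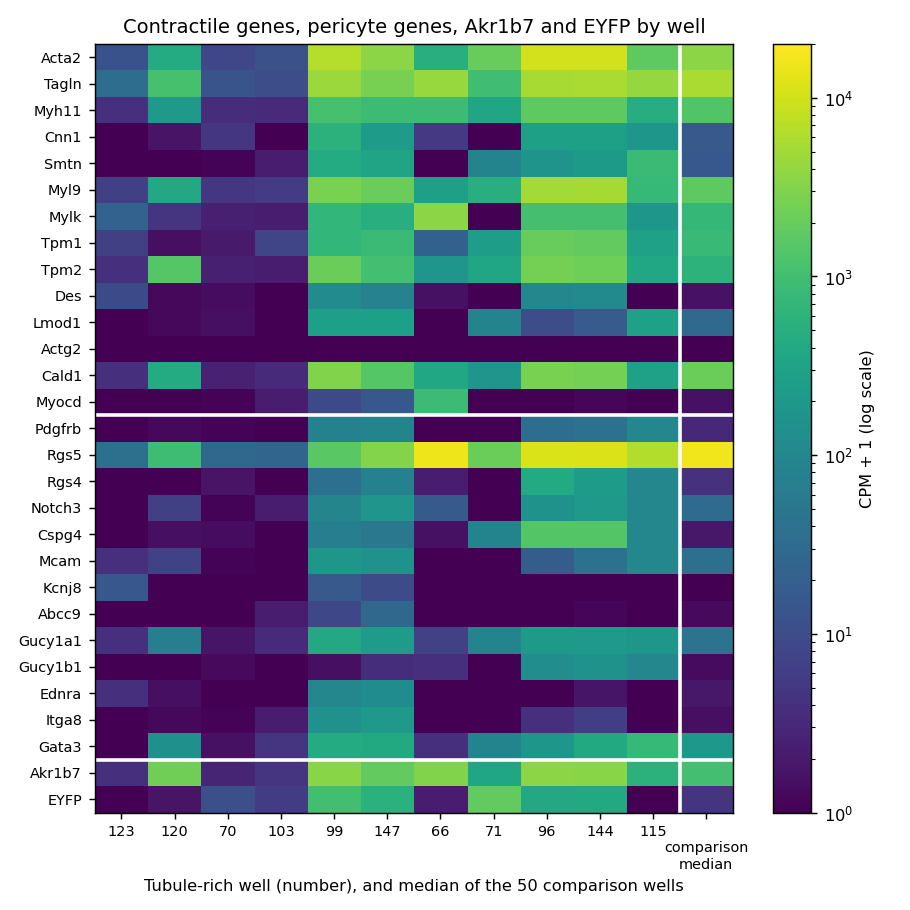
CPM + 1 (colour, log scale) of the contractile genes (upper block), the pericyte genes (middle block), and Akr1b7 and EYFP (lower block) in the 11 tubule-rich wells, ordered by the rule sum, and the median of the 50 comparison wells (last column). Sample123, Sample70 and Sample103 are dark in nearly every row, and Sample120 is bright in Acta2, Tagln, Tpm2, Rgs5 and Akr1b7 and dark in Cnn1, Mylk and Pdgfrb.

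Sample120 held tubule and mural transcripts side by side, with 48669 CPM of the tubule lists and 5255 CPM of the mural lists in 4217630 counts. Its mural transcripts were a part of the list. Tpm2 was at 1467 CPM, Tagln at 1130 CPM, Rgs5 at 934 CPM, Cald1 at 449 CPM, Acta2 at 446 CPM and Myl9 at 393 CPM. In the same well Tpm1 was at 0.47 CPM, Cnn1 at 0.71 CPM, Mylk at 3.56 CPM and Notch3 at 5.45 CPM, and Smtn was at 0. Of these, Tpm2 was above its comparison median of 605 CPM and Tagln, Rgs5, Acta2 and Myl9 were below theirs. Sample120 also held Mgp, the matrix Gla protein, at 4223 CPM, and Akr1b7 at 2321 CPM, beside comparison medians of 1595 and 1043 CPM. Whether its mural transcripts came from the cell in the well or from elsewhere was not tested.

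Akr1b7 did not separate the sets, with 2124 CPM over the tubule-rich and 2085 CPM over the comparison wells and a log2 ratio of 0.03. It was at least 100 CPM in 8 of 11 tubule-rich and 37 of 50 comparison wells. The 3 tubule-rich wells below that level were Sample103, Sample123 and Sample70, at 3.50, 2.74 and 1.74 CPM, which are the wells whose mural sums lay under every comparison well. EYFP reached 100 CPM in 5 of 11 tubule-rich wells, with 1883 CPM in Sample71, 1006 CPM in Sample99, 561 CPM in Sample147, 405 CPM in Sample144 and 386 CPM in Sample96, and in 16 of 50 comparison wells. It was at 10.3 CPM in Sample70, 4.66 CPM in Sample103, 0.71 CPM in Sample120 and 0 in Sample123. Ren1, the gene that is disrupted in these mice, was at 0.59 CPM over the tubule-rich and 0.07 CPM over the comparison wells. Of 7 tested genes of the renin cell list, 3 were at least 4-fold lower and none higher, with a median of -1.17, beside 34.6% and 18.3% of all tested genes. Of these 7 genes, Gja5, connexin 40 of the juxtaglomerular cells, had a ratio of -3.52, with 98.6% of its comparison counts in 1 well, and Gja4, connexin 37, one of 0.91.

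In the renin-angiotensin system, 6 of 7 tested genes were at least 4-fold lower, beside 34.6% of all tested genes, with a median log2 ratio of -4.70. Of these 6 genes, 3 are also in the list of brush border peptidases, Mme and Enpep among them, and make up the 3 lower genes given there. Agt, angiotensinogen, which the late proximal tubule is known to make, was at 0 in both sets. The receptor genes Agtr1a and Agtr1b had ratios of -4.70 and -8.77, the latter with 76.4% of its comparison counts in 1 well. Ctsb, which encodes cathepsin B, had a ratio of -1.15. Of 8 matrix genes that the study itself chose on these cells, which is no independent evidence of their direction, 1 was at least 4-fold lower and none higher, beside 34.6% and 18.3%, with a median of -1.23. Spp1, osteopontin, which tubule cells also make, was at 2724 CPM in Sample70 and 2289 CPM in Sample123 but at 1.66 CPM in Sample120.

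Nuclear-encoded genes of the respiratory chain had a median log2 ratio of 1.48, with 3 of 22 tested genes at least 4-fold higher, a share below the 18.3% of all tested genes, and none lower. The ratio was above 0 for 21 of the 22 genes, and for 19 of them in both libraries. TMM factors raise every ratio by 0.42, so they could not lower the first of these counts. Their sum was 23356 CPM in Sample123 and 18330.1 CPM in Sample70, and 2952 to 11936 CPM in the other tubule-rich wells, beside 960 to 9678 CPM with a median of 3885 CPM in the comparison wells. Ndufs1 and Uqcrc1, of complexes I and III, had ratios of 3.03 and 2.59, and Atp5b, of the ATP synthase, one of 2.16. The share of counts from mitochondrially encoded genes had a median of 12.8% over the tubule-rich wells and 4.38% over the comparison wells, which were chosen with a limit on it. Under the same limits the median was 11.9% over 7 tubule-rich wells, and without them it was 11.98% over all 85 other Renin-null wells. The part of this share in the ratios was not tested. Genes of the response to cell dissociation had a median of -0.79, with none of 17 at least 4-fold higher and 1 lower, beside 18.3% and 34.6%. The list summed to 21817 CPM in Sample96, 21625 CPM in Sample144 and 19213 CPM in Sample66, above the comparison median of 12975 CPM, and to between 25.6 CPM (Sample103) and 4190 CPM (Sample115) in the other 8 wells. Fos, Jun and Egr1 were at 4303, 567 and 2740 CPM in Sample96, at 9.32, 2.33 and 0 CPM in Sample103 and at 16.4, 0 and 0 CPM in Sample123, and Fos had a median of 4282 CPM in the comparison wells.

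The 12 genes with the highest ratios, among those counted in at least 50% of the 11 wells, with the same direction in both libraries and at most 50% of the counts in 1 well, had log2 ratios of 12.99 down to 11.05, and 11 of them are reported here, namely Cela1, Akr1c21, Nat8f1, Pdzk1, Cda, Spp2, Ttc36, Slc7a7, Cryl1, Me1 and Sardh. Cela1, an elastase-like protease (chr15:100674421-100687921, minus strand, GRCm38), had 4468 counts in 8 tubule-rich wells and 4 counts in 3 comparison wells, and the counting interval of its ratio of 12.99 was 11.63 to 14.86. It was at 329 CPM in Sample103, 252 CPM in Sample123, 146.95 CPM in Sample144, 139.8 CPM in Sample96, 101.99 CPM in Sample70, 95.8 CPM in Sample99 and 76.2 CPM in Sample147. Akr1c21, a hydroxysteroid dehydrogenase (chr13:4574075-4586541, plus strand), was at 4154 CPM in Sample103, 3496 CPM in Sample123, 1191 CPM in Sample70, 642 CPM in Sample99 and 576 CPM in Sample147. In Sample96 and Sample144 it was at 0.13 and 0.31 CPM, and in the comparison wells at no more than 2.63 CPM. Cda, cytidine deaminase (chr4:138338424-138367992, minus strand), was counted in 9 of the 11 wells, from 95.2 CPM in Sample115 (1 of only 10502 counts) to 928 CPM in Sample123. It was at no more than 3.42 CPM in the comparison wells. Cryl1, a crystallin-related enzyme of sugar acid metabolism, was at 1250 CPM in Sample120, 517 CPM in Sample96 and 452 CPM in Sample144. Cela1, Cda, Spp2, Ttc36, Cryl1 and Sardh were thus at 72.1 CPM or more in Sample96 and Sample144, and Akr1c21, Nat8f1 and Me1 were at or under 0.31 CPM there. None of these 11 genes was above 0.59 CPM in Sample66. The same direction in both libraries can rest on Sample96 of YFP1 and Sample144 of YFP2, which are near-identical. Spp2, for example, was at 0 in Sample70 of YFP1.

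**Figure D5:**
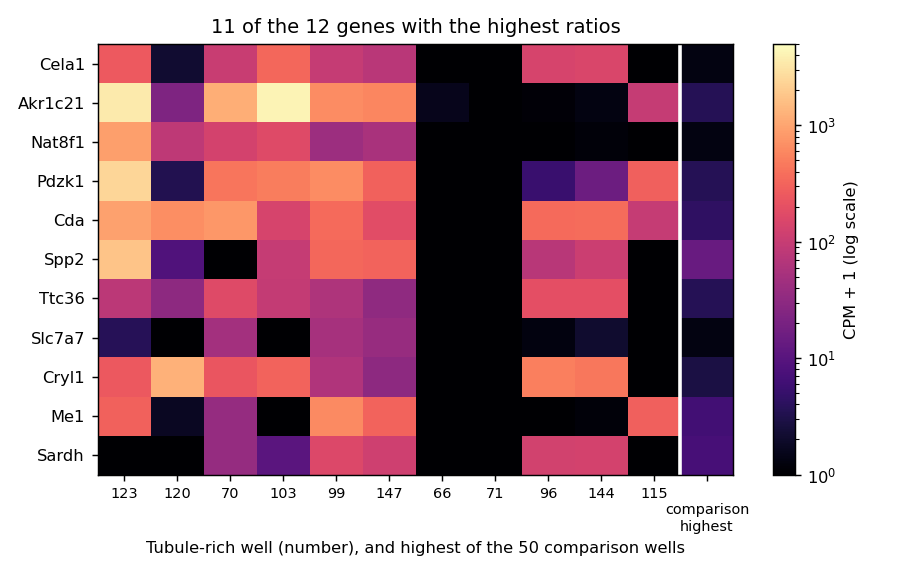
CPM + 1 (colour, log scale) of 11 of the 12 genes with the highest ratios (rows) in the 11 tubule-rich wells, ordered by the rule sum, and the highest of the 50 comparison wells (last column). Sample66 and Sample71 are dark in every row, and Sample96 and Sample144 share a bright subset with each other.

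Promoters of 10 of the 12 genes are in the RefSeq table on GRCm38.p6, which was searched from 250 bases before to 50 bases after the first listed start of each gene. Of the letters searched, those reported here are CAAAGTCCA, a site of the HNF4 factors, on both strands (read in reverse as TGGACTTTG). Of the 27025 genes in the table, 0.477% held them. Among 91 genes of the tubule lists, 6 (6.59%) held them, and among 22 mural genes none did. Of the 12 highest genes, Pdzk1 held them from base 15 after the start, and its promoter is shown because it is the member with a match to these letters. A match is a run of letters and not a measured site. The window is chr3:96829815-96830114 (plus strand), with the matched letters in capitals.
Pdzk1: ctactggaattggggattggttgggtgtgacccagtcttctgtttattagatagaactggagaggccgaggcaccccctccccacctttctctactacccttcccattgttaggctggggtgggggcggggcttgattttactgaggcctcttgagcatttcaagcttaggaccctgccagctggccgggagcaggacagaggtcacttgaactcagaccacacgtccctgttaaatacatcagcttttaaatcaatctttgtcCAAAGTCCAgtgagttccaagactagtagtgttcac

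The 12 genes named at the low end were Mlf1, Atpsckmt, Pmvk, Vmn1r38, Slc11a1, Lifr, Zfp948, Tspan12, Enc1, Rab27a, Csrnp1 and Slc5a3, with log2 ratios from -11.71 to -9.41. Here too, named genes were limited to at most 50% of the counts in 1 well. They are therefore not the lowest of all tested genes. Cldn19 and Mme, whose comparison counts were nearly all in 1 well, are not among them. Levels of the 12 genes in the comparison wells were uneven. Mlf1 (chr3:67374097-67400003, plus strand) had 2 counts in the 11 wells, both in Sample70, and was at 152 CPM over the comparison wells, where the median was 0.30 CPM and the highest well 3457 CPM. The counting interval of its ratio was -14.76 to -9.86. Lifr, the receptor of leukaemia inhibitory factor, had 8 counts in 4 tubule-rich wells and was counted in 43 of 50 comparison wells, with a median of 1.22 CPM and a highest value of 2308 CPM. Slc5a3, the myo-inositol transporter, was at no more than 2.33 CPM in any tubule-rich well, with a comparison median of 1.29 CPM and a highest value of 2911 CPM. Most wells of either set thus held little of these 3 genes, and the ratios come from the comparison wells that held much.

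No WT well met the rule. Of 51 WT wells, 0 reached 1000 CPM over the rule genes, with a median of 0.58 CPM. Over the tubule lists outside the rule, the WT wells had a median of 409 CPM, but 3 of them lay above every comparison well, at 75254, 53772 and 24834 CPM. Each of the 3 had a rule sum of 0 and owed nearly all of its sum to 1 gene, with 75161 CPM of Pdzk1 in the first, 53442 CPM of Gsta2 in the second and 24758 CPM of Glyat in the third. Only 9, 9 and 6 tubule genes had a count in them. WT and Renin-null wells were captured separately, so genotype and capture cannot be told apart, and no comparison of the genotypes was made.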

How the data were processed

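The authors deposited expected counts for each gene and well, estimated by Salmon from full-length SMART-Seq v4 reads, brought to gene level with tximport and scaled for transcript length. The submitters' processing notes name FastQC 0.11.5, Trimmomatic 0.39, Salmon 0.11.2 and GRCm38.p6. There were no molecular identifiers, so intervals and floors cover counting error only. Here the 35438 genes of the Renin-null wells were rounded to whole counts and scaled to CPM with all genes in the depth. CPM were not divided by gene length. Ratios compare the same gene between sets, and sums compare the same list between wells. Levels of different genes or lists in 1 well are given side by side without such scaling. Tested genes had a count in at least 5 of the compared wells and at least 10 CPM in the higher set, and a gene was called at a log2 ratio of summed counts of 2 or more or -2 or less. A set at 0 took a floor of 3 counts. Ratio intervals are exact conditional intervals at 95%. Genes were named as members of fixed lists, or as 12 genes at each end of the ratios. Those at either end were limited to at most 50% of the counts in 1 well. The rule for the 12 highest is stated in full with the results. The members and lists were chosen with earlier results of these data known. Doublets were not called. Other scalings, thresholds, filters, single libraries and left-out wells were tried. Python 3.11.15 (numpy 2.4.6, pandas 2.3.3, scipy 1.17.1, matplotlib 3.10.9) and, for TMM factors, R 4.3.3 with edgeR 4.0.16 were used. The code was tested on simulated data. Results of some genes and of another promoter motif are not reported here.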

Additional observations from a re-analysis of the deposited data

Results flagged for a closer look

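A signal over the rule genes was also present in the WT wells, which the comparison of Renin-null wells did not use. The highest WT well summed to 958.6 CPM, all of it from Pck1, an enzyme of glucose synthesis, with 10812 counts in a depth of 11278526, and lay just under the limit of 1000 CPM. Over the tubule lists outside the rule the same well held 149 CPM, beside a WT median of 409 CPM. Its mural genes summed to 55166 CPM.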

How the results depend on the processing

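The values below are, in order, the median log2 ratio of the tubule lists, of the contractile genes and of the pericyte genes, which were 6.20, -0.96 and -1.60. They were 5.89, -1.10 and -1.65 with means of CPM over wells, 6.21, -0.81 and -1.45 without mitochondrial counts, 6.48, -0.55 and -1.18 with TMM factors, 6.39, -1.01 and -2.72 in library YFP1 alone, and 6.74, -0.69 and -1.06 in YFP2 alone. With tubule-rich wells within the limits on depth and mitochondrial share they were 6.12, -0.87 and -1.81, against all other wells 6.78, -0.85 and -1.49, at a threshold of 500 CPM 6.03, -0.86 and -0.96, and at 2000 CPM 6.50, -1.38 and -1.81. With near-identical wells counted once they were 6.24, -1.16 and -1.97, without the highest well of each gene 8.03, -0.93 and -1.81, without wells of over 9000 genes 6.93, -1.17 and -2.11, with wells thinned to 100000 counts 5.22, -1.01 and -1.84, and without Sample66, Sample71 and Sample115, a choice made after seeing the data, 6.26, -1.03 and -1.63. As differences of mean log2(CPM + 1) they were 2.40, -1.38 and -0.55, and 9.45% of the tested genes rather than 18.3% were past the limit of 2 upwards and 1.60% rather than 34.6% downwards. Without a filter on low genes these were 17.9% and 37.0% of 17672 genes (3155 and 6539 genes), and the pericyte median was -1.49. Leaving out 1 tubule-rich well at a time gave 17.2% to 19.1% of the tested genes higher, 33.3% to 41.1% lower, medians of 5.67 to 6.26, -1.16 to -0.58 and -1.85 to -1.21, and 7 to 8 wells with at least 1000 CPM of mural genes. The contractile median of -0.58 was the one without Sample70. None of these changed the sign of a median. The median of all tested genes moved as well, from -0.74 to -1.75 in YFP1 alone, -1.17 with tubule-rich wells within the limits, -1.62 without wells of over 9000 genes, -0.88 without Sample70, -0.86 without Sample120 and -1.16 without Sample147, in each of which the contractile median lay above it. In all the other settings named here, and without any other single tubule-rich well, the contractile median lay below it. In the other settings the 2 gene counts stayed within 1.5 times the values reported. At least 1000 CPM of mural genes were held by 14 of 18 tubule-rich wells at a threshold of 500 CPM and by 3 of 6 at 2000 CPM. It was 5 of 7 wells within the limits, and 5 of 8 without Sample66, Sample71 and Sample115. By library, it was 3 of 4 wells in YFP1 and 5 of 7 in YFP2. Sample71 and Sample115 were too shallow for their rule sums to be told from the limit. No paired analysis was possible because the replicate numbers are well numbers and no test was run.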

Other observations

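Gpx3, the secreted glutathione peroxidase that the proximal tubule is known to make, is in none of the lists and was named after its values were seen. It was at 23865 CPM in Sample123, 19040.0 CPM in Sample70, 10435 CPM in Sample103, 7510 CPM in Sample120, 5503 CPM in Sample99 and 4196 CPM in Sample147. It was at 2711 CPM in Sample144, 2467 CPM in Sample96, 1284 CPM in Sample71, 1143 CPM in Sample115 and 19.9 CPM in Sample66. The comparison wells had a median of 2.33 CPM of Gpx3 and a highest value of 1532 CPM, so 8 of the 11 wells lay above all of them. The haemoglobin gene Hbb-bs, also named after its values were seen, was at 6909 CPM in Sample99, 3566 CPM in Sample147, 476 CPM in Sample115 and 342 CPM in Sample71, and at no more than 22.2 CPM in the other tubule-rich wells, beside a highest comparison well of 149.0 CPM.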
